A study of Mus musculus with 6 samples.

Results

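Cells keep superoxide and hydrogen peroxide low with a small set of enzymes. Superoxide dismutases turn superoxide into hydrogen peroxide, and catalase, the glutathione peroxidases and the peroxiredoxins then break down hydrogen peroxide or lipid peroxides. Hepatocytes are rich in these enzymes because their mitochondria, peroxisomes and drug-metabolising enzymes produce both oxidants. The expression of these genes was compared between livers that lack S1P lyase and wild-type (WT) livers. The rule named 10 antioxidant enzyme genes and took each probe set, the group of probes that reads 1 transcript on the array, to which the platform annotation assigned exactly 1 symbol. It took 17 of the 45101 probe sets on the array, and these read 7 of the 10 genes. They were Sod1, Sod2 and Sod3 (superoxide dismutases), Cat (catalase), and Gpx1, Gpx3 and Gpx4 (glutathione peroxidases). All 5 probe sets of Prdx1 were also assigned to a pseudogene, Gm21399, so no value is given for it. Prdx5 and Prdx6 were not analysed here, since the annotation used lists no probe set under these names.

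The data are 6 Affymetrix arrays of liver RNA, 1 per mouse, from 3 S1P lyase knockout and 3 WT mice of mixed C57BL6 and 129sv background without treatment. S1P lyase, the product of Sgpl1, irreversibly breaks down the signalling lipid sphingosine 1-phosphate (S1P). The labels used here name neither age nor sex, nor the form of the targeted allele, nor whether all cells lack it. The values are on a log2 scale, on which a difference of 1 is a factor of 2, and the small number of arrays limits their precision. In bulk tissue, fewer cells of a type and less RNA per cell cannot be told apart.

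Of the 7 genes, Gpx3 rose and Cat and Gpx1 fell in the knockout livers, while Sod1, Sod2, Sod3 and Gpx4 did not pass the test. A gene was read by its brightest probe set and counted as changed when limma's adjusted p, corrected over all 13370 genes tested by the Benjamini-Hochberg method, lay under 0.05. That is 3 of 7 members, against 18.6% of all genes tested (10.5% rose and 8.09% fell), so with 7 genes the share is not a result of its own. The members' median difference, knockout minus WT, was -0.08 log2, close to the -0.05 of all genes. The genotypes did not overlap in 4 of the 7 members, against 40.8% of all genes: 3 lay wholly below WT, against 21.8%, and 1 wholly above, against 19%.

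The promoters of the 3 genes that changed are shown so that the starts of a gene that rose and of those that fell can be read side by side. Each is the 250 bases before the first annotated start in RefSeq's GRCm38.p6 tables, written 5′ to 3′ on the gene's strand, at chr11:54902604-54902853 (plus strand) for Gpx3, chr2:103485154-103485403 (minus strand) for Cat and chr9:108338830-108339079 (plus strand) for Gpx1. Capitals mark CCAAT boxes (CCAAT, or ATTGG on the other strand) and GC boxes (GGGCGG, or CCGCCC on the other strand).
Gpx3: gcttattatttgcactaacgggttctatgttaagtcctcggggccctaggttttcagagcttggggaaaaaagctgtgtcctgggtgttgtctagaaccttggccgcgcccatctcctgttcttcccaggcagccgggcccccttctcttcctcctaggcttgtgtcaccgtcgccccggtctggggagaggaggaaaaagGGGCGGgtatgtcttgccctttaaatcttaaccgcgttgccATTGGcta
Cat: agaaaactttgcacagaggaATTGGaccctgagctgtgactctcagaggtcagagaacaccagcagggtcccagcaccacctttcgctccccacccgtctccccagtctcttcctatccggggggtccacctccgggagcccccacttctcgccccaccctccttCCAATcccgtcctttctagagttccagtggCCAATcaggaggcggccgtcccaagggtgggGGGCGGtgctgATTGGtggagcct
Gpx1: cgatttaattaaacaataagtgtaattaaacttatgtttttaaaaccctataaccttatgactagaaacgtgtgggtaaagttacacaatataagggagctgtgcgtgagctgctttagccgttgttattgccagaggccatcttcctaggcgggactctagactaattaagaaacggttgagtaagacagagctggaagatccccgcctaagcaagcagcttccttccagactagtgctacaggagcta
The Cat stretch holds 4 CCAAT boxes and 1 GC box, the Gpx3 stretch 1 of each, and the Gpx1 stretch none of these letters. CCAAT boxes occur in 33.8% and GC boxes in 32.7% of the 32851 promoter windows of this length. The core of the antioxidant response element, TGACNNNGC on either strand, which transcription factors of the NRF2 type bind, was absent from these 3 windows and present in 10.2% of all windows. Of the 6 members with a promoter in the tables, 1 held that core, Sod1. No promoter of Sod3 was matched. These matches describe letters only, and the arrays do not bear on binding.

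The livers carried their labels. Sgpl1, the targeted gene, had mean values, on its brighter probe set, of 6.75 ± 0.13 log2 (SD, n = 3) in WT livers but 2.78 ± 0.28 in knockout livers, and the hepatocyte gene Alb averaged 14.33 in WT and 14.28 in knockout. Control probe sets differed between the groups. The 3' minus 5' signal of the control transcripts, a measure of RNA integrity, averaged 1.38 to 1.80 log2 in knockout and 0.91 to 1.12 in WT (difference 0.64, p = 0.1 by a two-sided exact permutation test, which cannot go lower with 3 livers a genotype). The bacterial poly-A controls, which are added to the RNA before labelling, averaged 8.52 to 9.07 in knockout and 7.99 to 8.08 in WT, so centring the arrays on them moves the median of all genes to -0.80. Centring on 10 hepatocyte markers moves that median to 0.16. Small differences change sign between these scales. Of the called genes of the lists described here, Maff, Mafk and the neutrophil marker Csf3r do so on the poly-A scale. Csf3r rose by 0.61 log2 as deposited and stood at -0.14 on that scale.

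**Figure D1:**
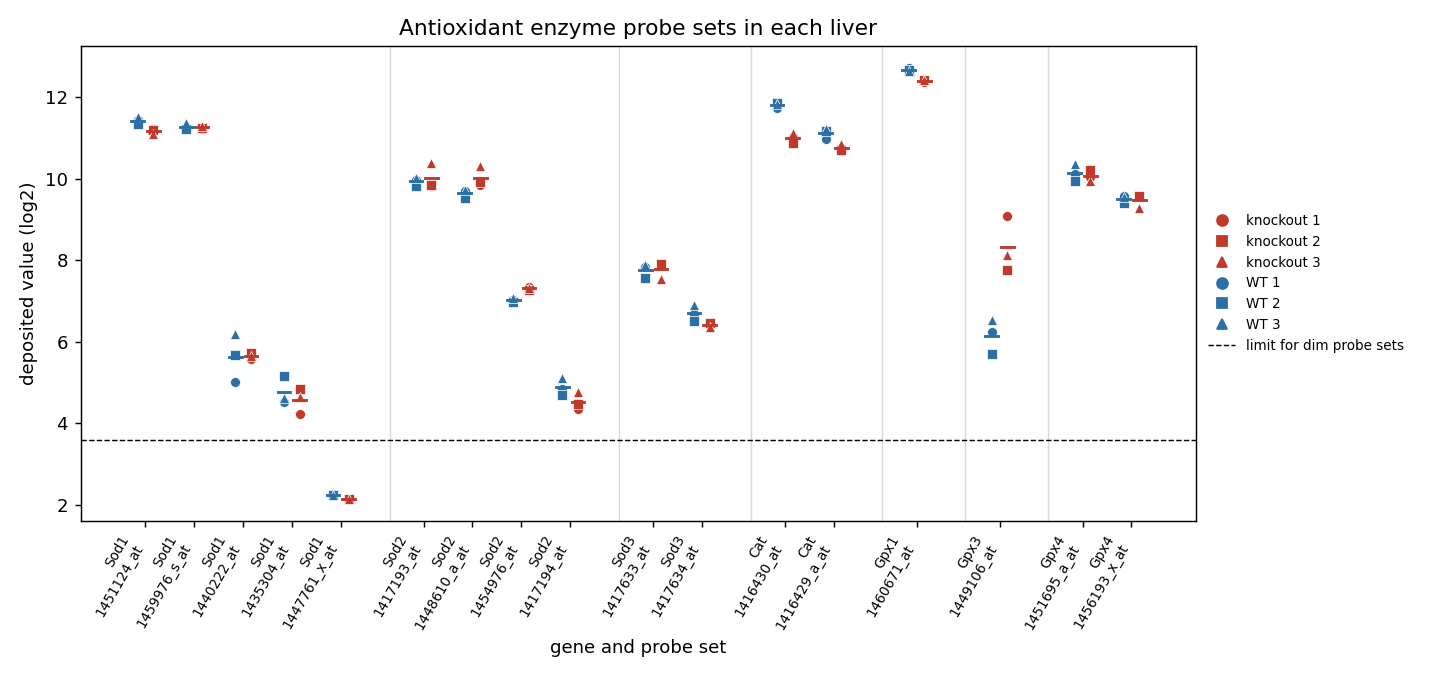
Deposited log2 values (y axis) of the 17 antioxidant enzyme probe sets (x axis, grouped by gene) in 3 knockout livers (red) and 3 WT livers (blue), with a symbol per replicate and a bar at each group mean; the dashed line at 3.58 log2 is the level under which probe sets were left untested. Gpx3 is the gene whose knockout points stand clearly above WT, both Cat probe sets and Gpx1 lie lower in knockout, and 1 Sod1 probe set lies under the line.

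Gpx3 encodes the secreted glutathione peroxidase of plasma, a selenoprotein made mainly in the kidney. Its probe set, 1449106_at, read 9.08, 7.76 and 8.14 log2 in knockout replicates 1, 2 and 3 and 6.23, 5.69 and 6.52 in the WT replicates. Every knockout liver lay above every WT liver, and the lowest knockout value exceeded the highest WT value by 1.24. The knockout livers also differed among themselves, over a range of 1.31, with replicate 1 the highest. The means were 8.32 ± 0.68 (SD, n = 3) and 6.15 ± 0.42, a difference of 2.18 log2 (SE 0.34), or 4.52-fold higher in knockout (95% confidence interval 2.62 to 7.80, limma adjusted p = 0.00436). By size of difference in either direction it ranked 135 of the 13370 genes. Gpx3 was higher by 1.80 to 2.46 log2 with any single array left out, and by 1.43 with arrays centred on the poly-A controls. A single probe set reads the gene, so no other probe set could be compared with it.

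Transcripts of other cell types moved in the same arrays. Neutrophil markers rose in 11 of the 12 tested of 14 listed, with a median of 3.98 log2 and a summed signal of 13712 to 15408 on the linear scale in knockout against 592 to 732 in WT. Macrophage markers rose in 5 and fell in 4 of 14, with sums of 6155 to 7127 against 3416 to 5296. Their part in the Gpx3 difference was not tested. Kidney tubule markers could be read only for some genes, and their share in the Gpx3 difference was not tested. Of 6 listed, 3 were bright enough to test and none was called, 1 of them with all knockout values above WT (Aqp2, 0.21 log2, limma adjusted p = 0.169, or -0.53 on the poly-A scale). Their summed signal was 55.7 to 64.0 in knockout and 56.9 to 68.4 in WT, while Umod, Slc34a1 and Slc12a1 were under the level for dim probe sets. Of 6 adipocyte markers, which mark another source of this enzyme, only Lipe could be tested, at -0.27 log2 (SE 0.11, limma adjusted p = 0.113). Adipoq, Lep and Cidec were dim.

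Cat encodes catalase, the peroxisomal enzyme that splits hydrogen peroxide into water and oxygen. On its brightest probe set, 1416430_at, it read 11.02, 10.88 and 11.11 log2 in the knockout livers and 11.73, 11.86 and 11.82 in the WT livers. The groups did not overlap, and the lowest WT value exceeded the highest knockout value by 0.62. Cat fell by 0.80 log2 (SE 0.10), which leaves 0.574 of the WT level (95% confidence interval 0.490 to 0.672, limma adjusted p = 0.00161). It remained called in each of 15 other settings, at -0.59 to -1.55 log2.

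The other Cat probe set, 1416429_a_at, gave a smaller difference. It read 10.70, 10.70 and 10.84 log2 in knockout and 10.96, 11.16 and 11.23 in WT, again without overlap. Its difference was -0.37 log2 (SE 0.11, limma adjusted p = 0.0475 over the 27022 probe sets tested), and the call was lost when any 1 array other than WT replicate 1 was left out (adjusted p = 0.0531 to 0.143). The brighter minus the other probe set was 0.17 to 0.32 log2 in knockout and 0.59 to 0.77 in WT (p = 0.1 by a two-sided exact permutation test, or 0.125 after Benjamini-Hochberg adjustment over the 5 genes with such a pair). Both probe sets place Cat lower in every knockout liver, by sizes that differ by 0.43 log2.

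Gpx1 encodes the main glutathione peroxidase inside cells, a selenoprotein of the cytosol and mitochondria that reduces hydrogen peroxide. Its probe set, 1460671_at, read 12.37, 12.43 and 12.41 log2 in knockout and 12.73, 12.68 and 12.63 in WT. The groups did not overlap, but the gap between them was small, at 0.21. Gpx1 fell by 0.28 log2 (SE 0.08), which leaves 0.826 of the WT level (95% confidence interval 0.728 to 0.936, limma adjusted p = 0.0446). That call rested on every array, since leaving out any 1 of the 6 raised the adjusted p to between 0.0681 and 0.145.

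Hepatocyte transcripts were themselves slightly lower in knockout. Of 10 tested of 12 listed hepatocyte markers, 2 fell and none rose, with a median difference of -0.13 log2 and a summed signal of 104102 to 109846 in knockout against 120268 to 121261 in WT. The centring used the mean of these 10 markers, in which Fabp1 had the largest difference, -0.97 log2. With arrays centred on that mean, the difference of Cat was -0.59 log2 (limma adjusted p = 0.00434), that of its other probe set -0.16 (adjusted p = 0.305) and that of Gpx1 -0.07 (adjusted p = 0.62). The brighter Cat probe set thus fell relative to the hepatocyte markers, while the other Cat probe set and Gpx1 were not called relative to them.

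**Figure D2:**
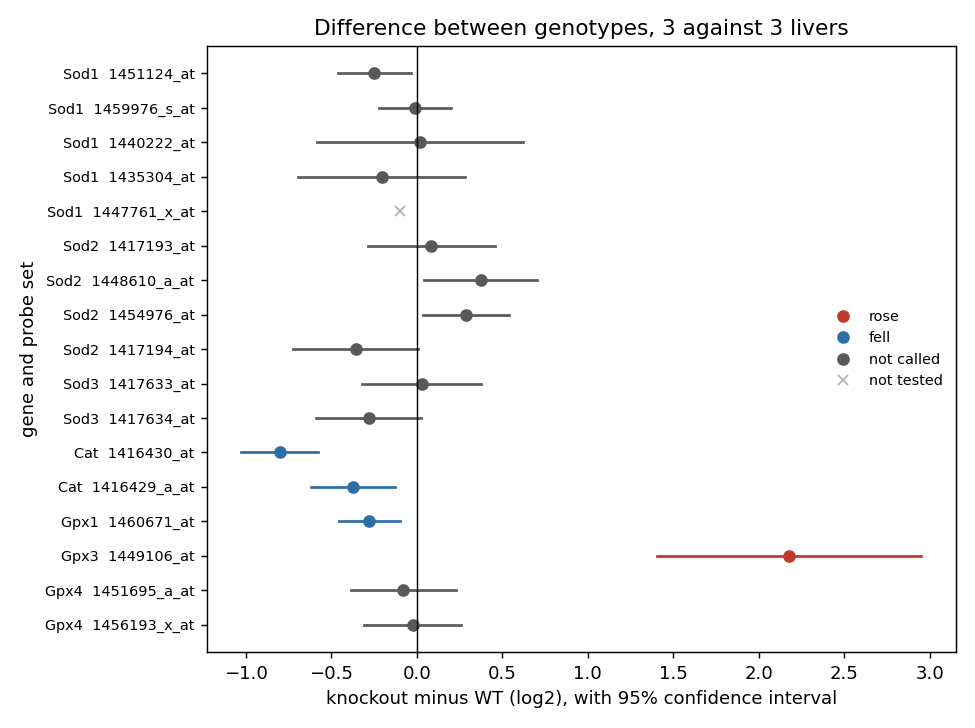
Difference between knockout and WT (x axis, log2) of each antioxidant enzyme probe set (y axis), with its 95% confidence interval from the fit over all tested probe sets, red where it rose, blue where it fell and grey where it was not called; the cross is the dim Sod1 probe set, which was not tested. Gpx3 stands at 2.18, the 2 Cat probe sets at -0.80 and -0.37 and Gpx1 at -0.28, while the intervals of Gpx4 include 0.

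Gpx4 encodes the glutathione peroxidase that reduces lipid hydroperoxides within membranes and so protects cells from ferroptosis. On its brighter probe set, 1451695_a_at, it read 10.04, 10.21 and 9.95 log2 in knockout and 10.13, 9.95 and 10.35 in WT, so the groups overlapped. The difference was -0.08 log2 (95% confidence interval -0.39 to 0.23, limma adjusted p = 0.706). The other probe set, 1456193_x_at, read 9.58, 9.58 and 9.29 against 9.58, 9.39 and 9.55, a difference of -0.02 (adjusted p = 0.906). The interval of the first leaves room for a decrease of up to 0.39 log2. Gpx4 lies on chromosome 10, as does Sgpl1, with 432 annotated genes between them. The other members lie elsewhere, Cat on chromosome 2, Sod3 on 5, Gpx1 on 9, Gpx3 on 11, Sod1 on 16 and Sod2 on 17. Of the 3 glutathione peroxidase genes, which all encode selenoproteins, 1 thus rose, 1 fell and 1 was not called.

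The superoxide dismutases act one step earlier. Sod1 encodes the copper and zinc enzyme of the cytosol. Its brightest probe set, 1451124_at, read 11.22, 11.21 and 11.10 log2 in knockout and 11.43, 11.34 and 11.50 in WT. All knockout values lay below all WT values, yet the difference of -0.25 log2 (95% confidence interval -0.46 to -0.03) did not pass (limma adjusted p = 0.101). The probe set next to it in brightness, 1459976_s_at, whose suffix marks probes that may be shared with other transcripts, read 11.22, 11.25 and 11.29 against 11.22, 11.21 and 11.37. It differed by -0.01 log2 (SE 0.09, adjusted p = 0.947), with overlapping groups. The other pair of tested Sod1 probe sets differed by 0.02 and -0.20 log2 and were not called. The fifth averaged 2.14 in knockout and 2.24 in WT, under the level for dim probe sets.

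Sod2 encodes the manganese enzyme of mitochondria, a known target of NF-kappaB in inflammation. Its probe sets pointed different ways. The brightest, 1417193_at, read 9.83, 9.85 and 10.38 log2 in knockout and 9.97, 9.81 and 10.03 in WT, a difference of 0.09 (95% confidence interval -0.29 to 0.46, limma adjusted p = 0.734). Knockout replicate 3 stood above the other 5 livers, and without it the difference was -0.09.

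The next probe set, 1448610_a_at, read 9.84, 9.92 and 10.30 log2 in knockout and 9.69, 9.52 and 9.73 in WT. The third, 1454976_at, read 7.34, 7.26 and 7.33 against 7.02, 6.97 and 7.07. In both, all knockout values lay above all WT values. The differences of the means, 0.37 and 0.29 log2, did not pass (limma adjusted p = 0.107 and 0.102). Hepatocyte marker centring made both pass, at 0.58 and 0.50 log2 (adjusted p = 0.0185 and 0.0117), and poly-A centring turned both negative, at -0.38 and -0.46. The dimmest of the 4, 1417194_at, read 4.34, 4.47 and 4.76 against 4.83, 4.69 and 5.12, with a difference of -0.36 log2 (adjusted p = 0.155). No single direction can therefore be given for Sod2. The NF-kappaB motif had 1 match each in the promoter windows of Sod2, Cat and Gpx1, 3 of the 6 members with a promoter, and occurs in 7.25% of all windows. These are matches of letters, and binding was not tested.

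Sod3 encodes the extracellular copper and zinc enzyme. Its brighter probe set, 1417633_at, read 7.90, 7.92 and 7.53 log2 in knockout and 7.82, 7.57 and 7.87 in WT, with overlapping groups and a difference of 0.03 (95% confidence interval -0.32 to 0.38, limma adjusted p = 0.905). The other, 1417634_at, read 6.43, 6.46 and 6.36 against 6.68, 6.50 and 6.90. There all knockout values lay below all WT values. The difference of the means, -0.28 log2, did not pass (adjusted p = 0.179). In Sod1, Sod2, Sod3 and Cat the brighter minus the next probe set did not overlap between the genotypes (p = 0.1 in each by the exact permutation test), in arrays whose 3' minus 5' signal also differed by 0.64 log2. Its part in these gaps was not tested. Over all 16 tested member probe sets, 1 rose and 3 fell (25% called), against 17.9% of all probe sets called, 10.1% up and 7.82% down. The groups did not overlap in 8 of the 16, against 40% of all probe sets.

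The remaining genes of these families were mostly not called, as were most genes tested, of which 18.6% were called. Of 7 tested of 9 listed, Prdx4, the peroxiredoxin of the endoplasmic reticulum, fell by 0.65 log2 (SE 0.13, limma adjusted p = 0.0114). The other 6 were not called. Among these, Gpx5, Gpx6 and Gpx7 had low signal, averaging 4.43, 3.78 and 4.30 log2 in knockout and 4.67, 4.05 and 4.43 in WT. Their differences may therefore be understated. The median of the list, -0.24, is the difference of Gpx5. The other tested Prdx4 probe sets differed by -0.30 and -0.35 and were not called. Ccs, the copper chaperone that loads Sod1, differed by -0.45 log2 (SE 0.14, adjusted p = 0.0591), with every knockout value below WT.

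In the list for glutathione, the substrate of the glutathione peroxidases, which holds genes of its synthesis, reduction and breakdown, 4 of 13 tested of 15 listed fell and none rose (median -0.33). Gclc and Gclm, the subunits of the rate-limiting enzyme of glutathione synthesis, fell by 0.63 log2 (SE 0.12) and 0.68 (SE 0.14), and another probe set of each fell as well. Cbs, which directs homocysteine towards cysteine, fell by 0.74 (SE 0.13). Chac2 (-0.85, SE 0.17) breaks glutathione down rather than making it. Gsr, which regenerates reduced glutathione, differed by -0.07 (SE 0.15) and on its other probe set by 0.37 (SE 0.13), neither called. Among the genes not called, Oplah had the lowest adjusted p. It differed by 0.53 log2 (limma adjusted p = 0.0511), with every knockout value above WT, and stood at -0.22 on the poly-A scale.

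In the NADPH list, which feeds that regeneration, 4 of 11 tested of 12 listed fell and none rose, though the median was 0.23. The 7 genes not called all had positive differences. Among them Pgd (0.80 log2, limma adjusted p = 0.075) and Taldo1 (0.38, adjusted p = 0.0593) had every knockout value above WT. On the poly-A scale Pgd stood at 0.05 and Taldo1 at -0.37. Idh1 fell by 0.91 log2 (SE 0.10), the NAD kinases Nadk2 and Nadk by 1.08 (SE 0.14) and 0.58 (SE 0.12), while the malic enzyme Me1 fell by 2.17 (SE 0.54). Me1 was scattered in WT, at 7.28, 9.78 and 8.15, and its other probe set, at -1.60, was not called (limma adjusted p = 0.0687). In the thioredoxin and methionine sulfoxide repair list, 3 of 17 tested of 18 listed fell and 1 rose (median -0.14). The mitochondrial thioredoxin reductase Txnrd2 fell by 0.60 (SE 0.12) and the methionine sulfoxide reductases Msra and Msrb2 by 0.67 (SE 0.12) and 0.89 (SE 0.17), while Msrb3 rose by 1.18 (SE 0.21) on 1 of its 2 tested probe sets. The other Msrb3 probe set averaged 3.71 in knockout and 3.67 in WT, close to the level for dim probe sets.

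**Figure D3:**
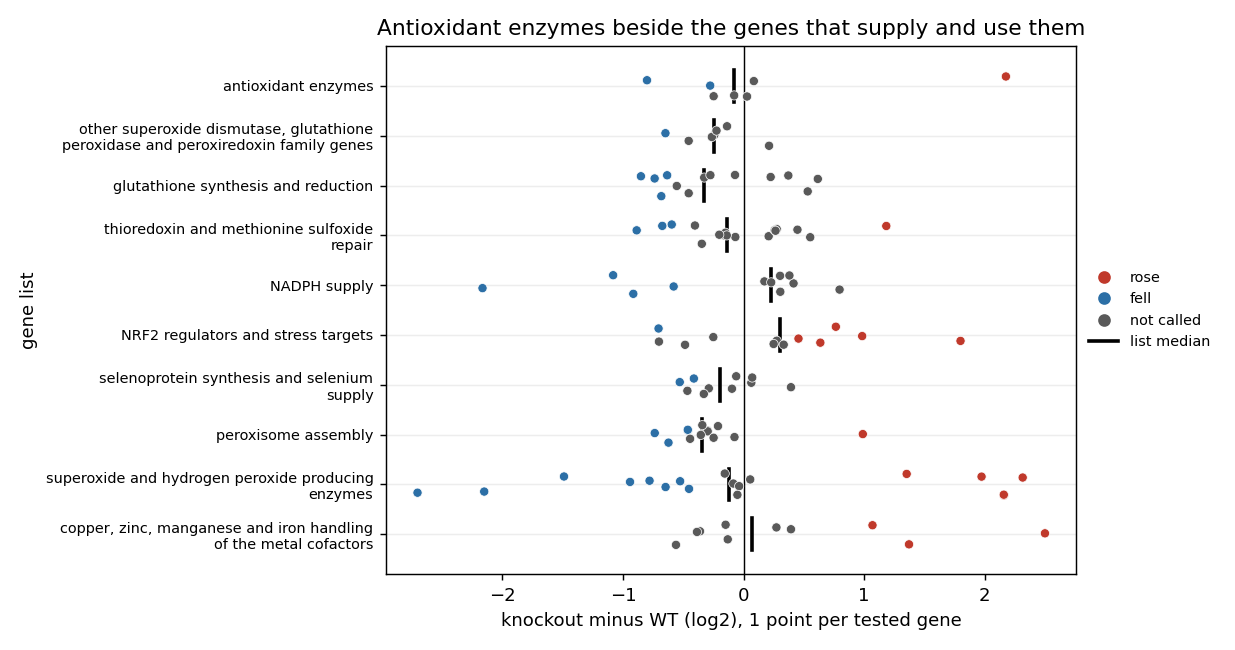
Difference between knockout and WT (x axis, log2) of each tested gene in the antioxidant enzyme set and in 9 lists of related genes (y axis), red where it rose, blue where it fell, grey where it was not called, with a black bar at each list's median. The glutathione list has 4 blue points, of which Chac2 breaks glutathione down, and no red, and the oxidant-producing list has points at both ends.

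Cat is imported into peroxisomes, and peroxisome assembly genes fell in 4 and rose in 1 of 13 tested of 16 listed (median -0.34). Pex7 and Pex5, the import receptors of which Pex5 carries catalase, fell by 0.62 log2 (SE 0.10) and 0.46 (SE 0.11), and the membrane transporter Abcd3 by 0.74 (SE 0.13) on 1 of 2 tested probe sets. The other Abcd3 probe set averaged 3.56 in knockout and 3.67 in WT, close to the level for dim probe sets. Pex11a, which acts in peroxisome division, rose by 0.99 (SE 0.21), and its other probe set rose as well. In the list for selenoprotein synthesis, which Gpx1, Gpx3 and Gpx4 need, 2 of 10 tested of 12 listed fell and none rose (median -0.19). Sepsecs, which makes the selenocysteine on its transfer RNA, fell by 0.53 (SE 0.13) and the selenocysteine lyase Scly by 0.41 (SE 0.11), although the other Scly probe set differed by 0.48 and was not called. Selenop, the plasma carrier of selenium, differed by -0.10 (SE 0.07) and was not called, with all knockout values below WT.

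In the NRF2 list, 5 of 12 tested of 13 listed rose and 1 fell (median 0.30). The heme oxygenase gene Hmox1 rose by 1.80 log2 (SE 0.23), its repressor Bach1 by 0.98 (SE 0.12) and the NRF2 inhibitor Keap1 by 0.77 (SE 0.14) on 1 of 2 tested probe sets. On the poly-A scale Hmox1 stood at 1.05, Bach1 at 0.24 and Keap1 at 0.02. Maff, a small partner protein, rose by 0.64 (SE 0.13) and is lower on the poly-A scale, at -0.11, as is Mafk, the least of the 5 that rose (0.46, or -0.29 on that scale). Nqo1, a typical NRF2 target, fell by 0.70 (SE 0.19), and Nfe2l2, which encodes NRF2, differed by 0.28 (SE 0.27) and was not called, and is lower on the poly-A scale, at -0.47. In the metal list, 3 of 10 rose and none fell on the brightest probe set (median 0.07). They were the iron and manganese importers Slc11a2 and Slc39a14, by 2.50 (SE 0.25) and 1.07 (SE 0.20), and the copper pump Atp7a, by 1.37 (SE 0.21). Other probe sets of Slc11a2, at 0.87 and 1.02, and of Slc39a14, at 1.23, rose as well. Those of Slc11a2 at 0.23 and of Slc39a14 at 0.18 and 0.42 were not called. In Slc39a8, Atp7b and Slc31a1, not called on the brightest probe set, a dimmer probe set fell, by 1.59, 0.72 and 0.69 log2. Their limma adjusted p over all tested probe sets was 0.000384, 0.0157 and 0.0125. A further Atp7b probe set, at -0.66, was not called.

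The enzymes that produce superoxide and hydrogen peroxide moved both ways, with 5 of 18 tested of 26 listed rising and 8 falling (median -0.12). Those of the phagocyte NADPH oxidase, Cybb, Cyba, Ncf1 and Ncf4, rose by 2.32 (SE 0.20), 2.16 (SE 0.19), 1.98 (SE 0.16) and 2.16 log2 (SE 0.13). Neutrophil markers, whose cells carry this oxidase, rose in the same livers, while macrophage markers moved both ways, and their part was not tested. The peroxisomal oxidases, which make the hydrogen peroxide that catalase removes, were divided. Hao2 fell by 2.71 (SE 0.30), Ddo fell by 0.78 (SE 0.14), Pipox fell by 0.65 (SE 0.11) and Acox3 fell by 0.45 (SE 0.12), whereas Uox (-0.04, SE 0.10), Hao1 (-0.05, SE 0.14) and Acox2 (-0.08, SE 0.14) were not called. The other tested probe sets of Ddo (-1.07) and Acox3 (0.05) were not called. The remaining genes that fell were the aldehyde oxidases Aox1 and Aox3 and the monoamine oxidases Maoa and Maob. These lists were not tested as sets, and their counts stand against the 10.5% of all genes that rose and the 8.09% that fell.

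**Figure D4:**
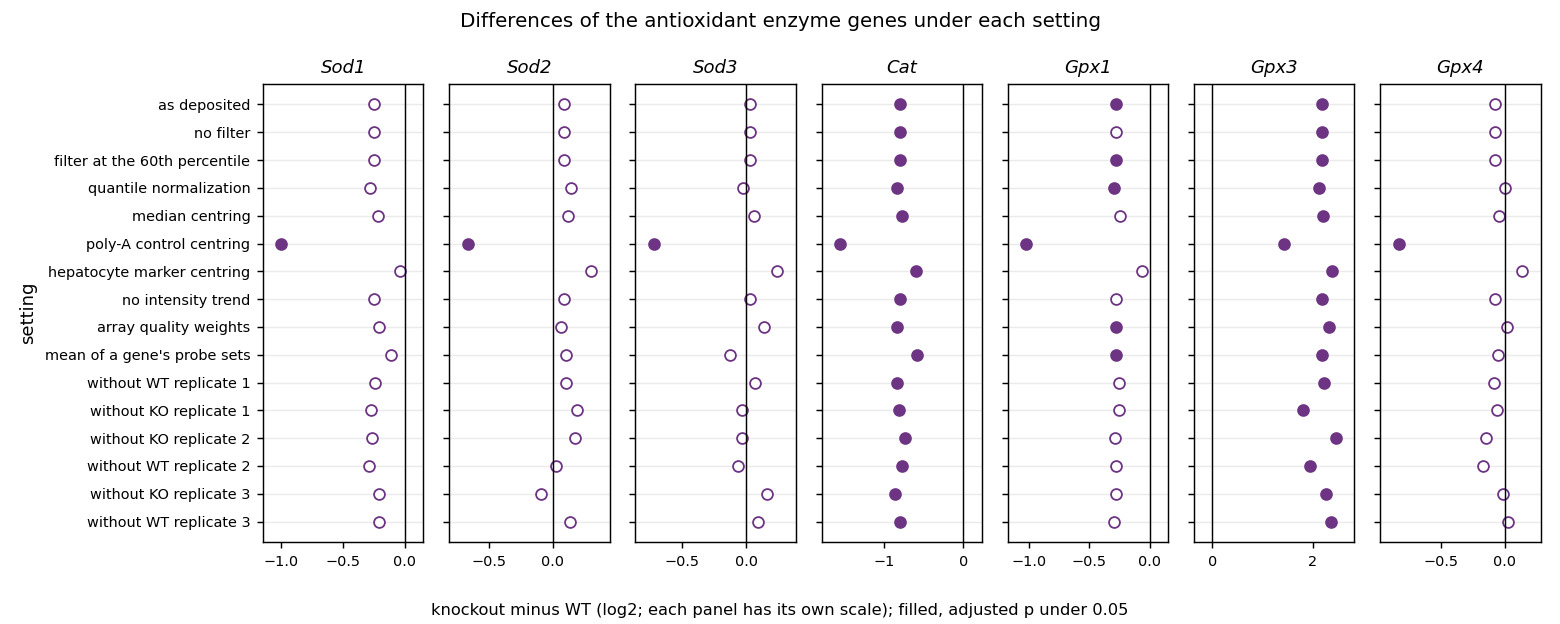
Difference between knockout and WT (x axis, log2, with a scale of its own in each panel) of the 7 antioxidant enzyme genes as deposited and under 15 other settings (y axis), filled where the adjusted p lay under 0.05. Gpx3 and Cat are filled in every setting shown, Gpx1 in 6 of 16, and Sod1, Sod2, Sod3 and Gpx4 only with arrays centred on the poly-A controls.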

How the data were processed

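The deposited values, 1 per probe set and array, were made by the authors and are on the log2 scale, which was settled from their range. MAS5 is the only tool named, per the submitters' processing notes; the sources used here do not say how probes were background-corrected, scaled and summarized. No detection calls were used, so low values may be background.

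The 64 control probe sets and all probe sets whose mean lay under the 40th percentile, 3.58 log2, were dropped, and 27022 were tested. Platform annotation gave 34958 of the 45101 probe sets 1 symbol, 932 several and 9211 none, and 34754 were matched to GRCm38.p6 gene identifiers. Each gene was read by its brightest tested probe set with 1 symbol. The contrast of knockout minus WT was fitted in R 4.3.3 with limma 3.58.1 (lmFit, eBayes with an intensity trend, two-sided), with Benjamini-Hochberg adjustment over 13370 genes, or over the probe sets where those are compared. "Rose" and "fell" are used of adjusted p under 0.05. The fit was tested on simulated data. The members, gene lists, motifs and tests were chosen with earlier results of these data known. Genes named are Sgpl1, the members and in each list at most 4 genes, those lowest in adjusted p. Gsr, Selenop, Nqo1, Nfe2l2, Mafk, the peroxisomal and other oxidases that fell, Uox, Hao1, Acox2, Alb, Fabp1, Csf3r, Aqp2, Lipe and the dim markers were named after their values were seen. So were Slc39a8, Slc31a1, Pgd, Taldo1, Oplah and Gpx7. Replicate numbers follow accession order and pair nothing. Other filters, scalings, priors, weights, summaries and left-out arrays were tried.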

Additional observations from a re-analysis of the deposited data

How the results depend on the processing

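The 1 rise, Gpx3, and the fall of Cat kept their direction and call in all 15 other settings of the fit, Gpx3 at 1.43 to 2.46 log2, and also at an adjusted p under 0.01. The count of members that fell was 2, and 1 without a filter, with median centring, with hepatocyte marker centring, without an intensity trend, at an adjusted p under 0.01 and with any 1 array left out (1 to 1), in each case through the loss of Gpx1, and 6 with poly-A centring. Called member probe sets numbered 4, 2 without a filter, 14 with poly-A centring and 2 to 3 with an array left out. Genes that fell numbered 1082 in all, 10120 with poly-A centring, 486 with hepatocyte marker centring, 353 at an adjusted p under 0.01 and 526 to 944 with an array left out. Genes that rose numbered 1400, and 377, 3007, 679 and 792 to 1437 in the same settings. The 42 called genes of the related lists were 85 with poly-A centring. The cause of these changes was not tested beyond the shift of each scale.

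Of members that were not called, Gpx4 changed sign with quantile normalization (0.0039 log2), hepatocyte marker centring (0.13), array quality weights (0.014) and between left-out arrays (-0.17 to 0.027). Sod2 changed sign with poly-A centring (-0.66) and between left-out arrays (-0.095 to 0.18). Sod3 did with quantile normalization (-0.028), poly-A centring (-0.72), the mean of its probe sets (-0.13) and between left-out arrays (-0.064 to 0.16). No paired analysis was possible because the labels number the animals individually and share no replicate number between genotypes. The centrings added for the related lists and the member probe sets, and their left-out arrays, were chosen after seeing the data. Values near the dim limit may understate differences.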

Other observations

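Nnt, the mitochondrial transhydrogenase that supplies NADPH for glutathione and thioredoxin reduction, varied more among WT livers than between genotypes. It read 9.68, 7.85 and 9.37 log2 in WT replicates 1, 2 and 3 and 9.30, 9.37 and 9.15 in the knockout replicates. WT replicate 2 was low, and the same liver had the highest Me1 value, 9.78 log2. Nnt was chosen after its values were seen.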
